A study of Equus caballus with 24 samples.

Results

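The 69 genes described here encode subunits of the oxidative phosphorylation machinery, and were compared in the pituitary and the long bone epiphysis of Debao ponies (DPs) and Mongolian horses (MHs). They were chosen by name alone, as every gene of the deposited read table whose symbol belongs to a mitochondrially encoded subunit with the prefix MT- or to a nuclear NDUF, SDH, UQCR, COX4 to COX8 or ATP5 subunit, which gave 69 of 24232 genes. Of these, 7 are encoded by the mitochondrial DNA (MT-ND2, MT-ND3, MT-ND4, MT-ND4L, MT-CYB, MT-CO1 and MT-ATP8) and 62 by nuclear DNA. By complex, 32 belong to complex I, 3 to complex II, 6 to complex III, 13 to complex IV and 13 to complex V. The name rule also took in ATP5S and ATP5SL, which are related by name and are not core subunits of the enzyme. Nuclear subunits with other names, such as CYC1 of complex III and NDUFAB1 of complex I, fall outside the rule and are not members. Another 6 mitochondrially encoded genes (ND1, ND5, ND6, COX2, COX3 and ATP6) are listed without the prefix, are not members, and are given only where a result of the 7 touches them. The nuclear symbols are older ones, so that ATP5A1 and ATP5B are the alpha and beta subunits of ATP synthase.

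Oxidative phosphorylation takes electrons from NADH (complex I) and succinate (complex II) through complex III to complex IV, which hands them to oxygen. Complexes I, III and IV pump protons across the inner mitochondrial membrane, and complex V, the ATP synthase, lets the protons back and makes ATP. Complexes I, III, IV and V are built from subunits of both genomes. The mitochondrial genes are transcribed inside the organelle as long polycistronic transcripts that are cut into single RNAs, whereas the nuclear genes are transcribed one by one, and complex II is nuclear throughout.

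RNA was taken from 6 female DPs, a small pony breed, and 6 female MHs, a taller breed, 3 juvenile and 3 adult in each breed, all healthy animals collected at a slaughterhouse. Pituitaries and long bone epiphyses (the ends of long bones) of these 12 horses were sequenced as 24 libraries, 3 in each of 8 groups. They are the juvenile DP pituitary (DPPJ), juvenile MH pituitary (MHPJ), adult DP pituitary (DPPA) and adult MH pituitary (MHPA), with the long bone groups DPLBJ, MHLBJ, DPLBA and MHLBA. No animal was treated, total RNA was depleted of ribosomal RNA and the libraries were directional.

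Reads counted on genes ranged from 11433209 to 27007342 per library. Against their labels, 5 of the 12 pituitary libraries had almost no anterior pituitary hormone transcripts. The summed level of GH, PRL, POMC, TSHB and FSHB was 0.164, 7.15 and 0.127 CPM (counts scaled to a common library size) in the 3 MHPJ libraries, 14.5 in DPPA replicate 1 and 0.974 in MHPA replicate 1, and 10840.4 to 33939 CPM in the other 7. In long bone it was at most 74.2 CPM. The same 5 libraries had summed myelin markers (MBP, MOG, MAG and MOBP) of 2239 to 11214 CPM against 52.5 to 1268 in the other 7 and 19.8 to 93.8 in long bone. Their markers of neurons (6 genes) summed to 663 to 4811 CPM against 867 to 1337 in the other 7. Markers of glia and pituicytes (8 genes, among them GFAP and VIM) summed to 4140.1 to 10511 CPM against 396 to 3793 in the other 7 and 1651 to 6648 in long bone, and MHPJ replicate 2 also had 2354 CPM of striated muscle markers. Since every MHPJ library was hormone-poor and no DPPJ library was, breed and this difference in hormone and myelin transcripts cannot be told apart in the juvenile pituitary. In long bone, markers of red cell precursors ranged from 0.397 to 7529 CPM and cartilage markers from 31.4 to 24758 CPM. In a bulk sample, fewer cells of a type and less RNA per cell cannot be told apart.

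Mitochondrially encoded subunits were more abundant per length than nuclear ones, and in 21 of 24 libraries the lowest of the 7 was above the highest of the 62. Levels between genes are compared here as RPKM (reads scaled by gene length and library size), as deposited. The median library of the pituitary had 20649.5 RPKM of MT-CO1, the catalytic core of complex IV, and 15124 of MT-ATP8, a small membrane subunit of complex V, and the lowest of the 7 was MT-ND4L at 1412 RPKM. The order in long bone was the same for the first 4, with 8456 RPKM of MT-CO1. The highest nuclear subunits were ATP5J (539 RPKM in pituitary and 412 in long bone) and UQCRB (533 and 452). On this scale the nuclear subunits of complex V had a median of 120.1 RPKM in pituitary, followed by complex III at 86.5, complex II at 73.4, complex I at 55.5 and complex IV at 34.8. Long bone gave the same order of complexes, from 86.6 RPKM for complex V to 30.7 for complex IV. The rank of complex IV rests in part on scarce forms that the name rule took in. COX4I2, COX6A2, COX7A1, COX7B2 and NDUFA4L2 had 0 to 4.12 RPKM in pituitary and 0.065 to 22.6 in long bone. Its other nuclear members ran from 31.3 (COX5A) to 234 RPKM (COX4I1) in pituitary. MT-ATP8 overlaps ATP6 and MT-ND4L overlaps MT-ND4 on the mitochondrial DNA, so the split of reads within these pairs is uncertain.

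Pituitary libraries gave more of their reads to the mitochondrial subunit genes than long bone libraries did. The 7 genes took 5.05 to 10.9 with a median of 6.59 percent of reads in the 12 pituitary libraries, and 2.07 to 4.35 with a median of 2.85 percent in the 12 long bone libraries, with no overlap between the tissues. MT-CO1 alone took 3.26 to 5.62 percent in pituitary and 1.26 to 2.50 in long bone. The 62 nuclear genes together took 0.472 to 0.727 with a median of 0.631 percent in pituitary and 0.389 to 0.747 with a median of 0.493 percent in long bone, and these ranges overlap. Counted over reads that are not mitochondrially encoded, the nuclear share was 0.525 to 0.809 percent in pituitary and 0.402 to 0.779 percent in long bone. The highest mitochondrial shares were in MHPJ replicate 3 (10.9 percent) and DPPA replicate 1 (9.63 percent), both hormone-poor. The 5 hormone-poor libraries ran from 6.41 to 10.9 percent and the other 7 from 5.05 to 7.96, which overlap. The highest nuclear share was in DPLBJ replicate 2 (0.747 percent) and the lowest in DPLBJ replicate 1 (0.389 percent), so the nuclear share spanned its whole range within 1 group. DPLBJ replicate 2 also had the highest red cell precursor markers (7529 CPM) and neutrophil markers (5483 CPM), whose part in this share was not tested. DPLBJ replicate 3 had 3971 and 1091 CPM of these markers at a nuclear share of 0.480 percent.

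**Figure D1:**
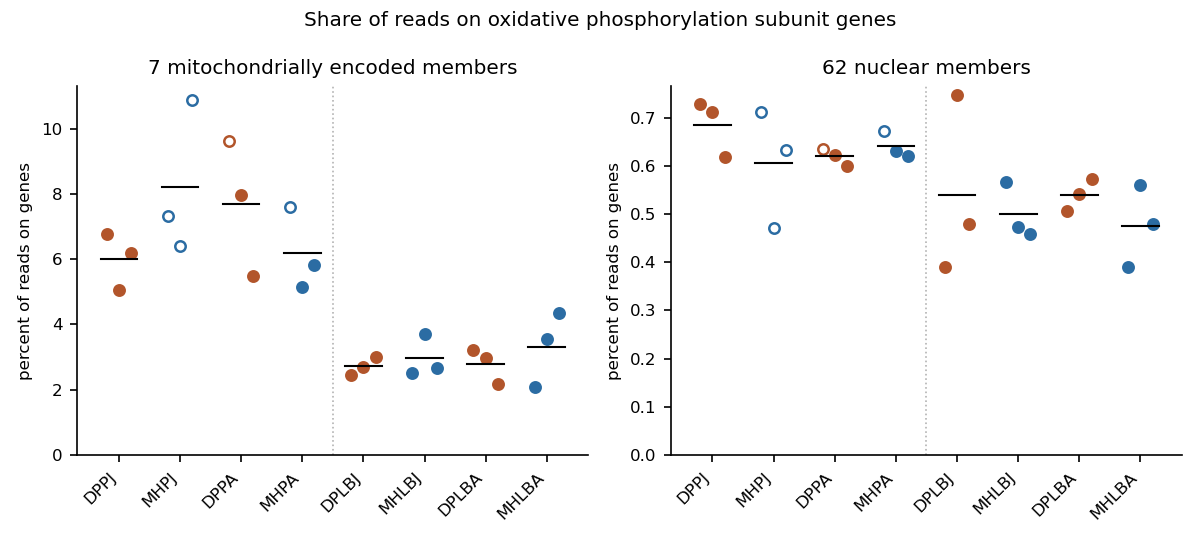
Percent of the reads on genes that fell on the 7 mitochondrially encoded (left) and the 62 nuclear subunit genes (right), 1 point per library in the 8 groups, with a line at the mean of each group of 3; open points are the 5 pituitary libraries with a hormone sum under 100 CPM. Pituitary lies above long bone at the left (5.05 to 10.9 against 2.07 to 4.35 percent), and the tissues overlap at the right.

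Gene by gene, all 7 mitochondrially encoded subunits were higher in pituitary than in long bone when the mean of the 4 pituitary groups was set against that of the 4 long bone groups in 1 fit of the 24 libraries. DEGs follow the study's threshold, an unadjusted P under 0.05 with a fold change over 2 in either direction. P comes from the quasi-likelihood test of edgeR, and adjusted p are Benjamini-Hochberg values over all genes tested. DEGs higher in pituitary made up 21.5% of 16131 genes, and they numbered 4 of the 7. MT-CO1 had 28449 to 55442 CPM in pituitary (median 39383) and 13906 to 25836 in long bone (median 19560.3), without overlap, which 4.87% of all genes showed in this direction. Its log2 fold change was 1.12 ± 0.19 (SE) with an edgeR adjusted p of 6.84e-05. MT-ND3, a small membrane subunit of complex I, also did not overlap, at 1143 to 2839 against 363 to 1083 CPM and 1.15 ± 0.17 (edgeR adjusted p = 1.32e-05). The 2 tissues overlapped for the other DEGs, MT-ND4L (1.39 ± 0.24) and MT-ATP8 (1.24 ± 0.23). MT-CYB, the membrane core of complex III, reached 0.87 ± 0.19, MT-ND2 0.84 ± 0.26 and MT-ND4 0.74 ± 0.22, with edgeR adjusted p of 0.000736, 0.00983 and 0.00649 and a change below the 2-fold limit. The 6 genes listed without the prefix ran from 0.78 (ND6) to 1.45 (ND5) on the same log2 scale.

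The difference was smaller without the hormone-poor libraries. Without those 5, and with the MHLBJ group left out to keep the groups matched, the median log2 fold change of the 7 genes went from 1.12 to 0.87, and 1 of them, MT-ATP8 at 1.02, was still a DEG, where 39.6% of 16006 genes were. MT-ND2 then stood at 0.10 (edgeR adjusted p = 0.732) and MT-ND4 at 0.19 (edgeR adjusted p = 0.41). MT-CO1 fell to 0.87 (edgeR adjusted p = 0.0125), under the 2-fold limit. Leaving these libraries out moved the 7 genes by unequal amounts. Read for read, MT-ND2 amounted to 6.55 to 21.1 percent of MT-CO1 in the 7 pituitary libraries with hormone transcripts, to 17.1 to 27.6 percent in the 5 without, and to 8.49 to 31.5 percent in long bone.

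**Figure D2:**
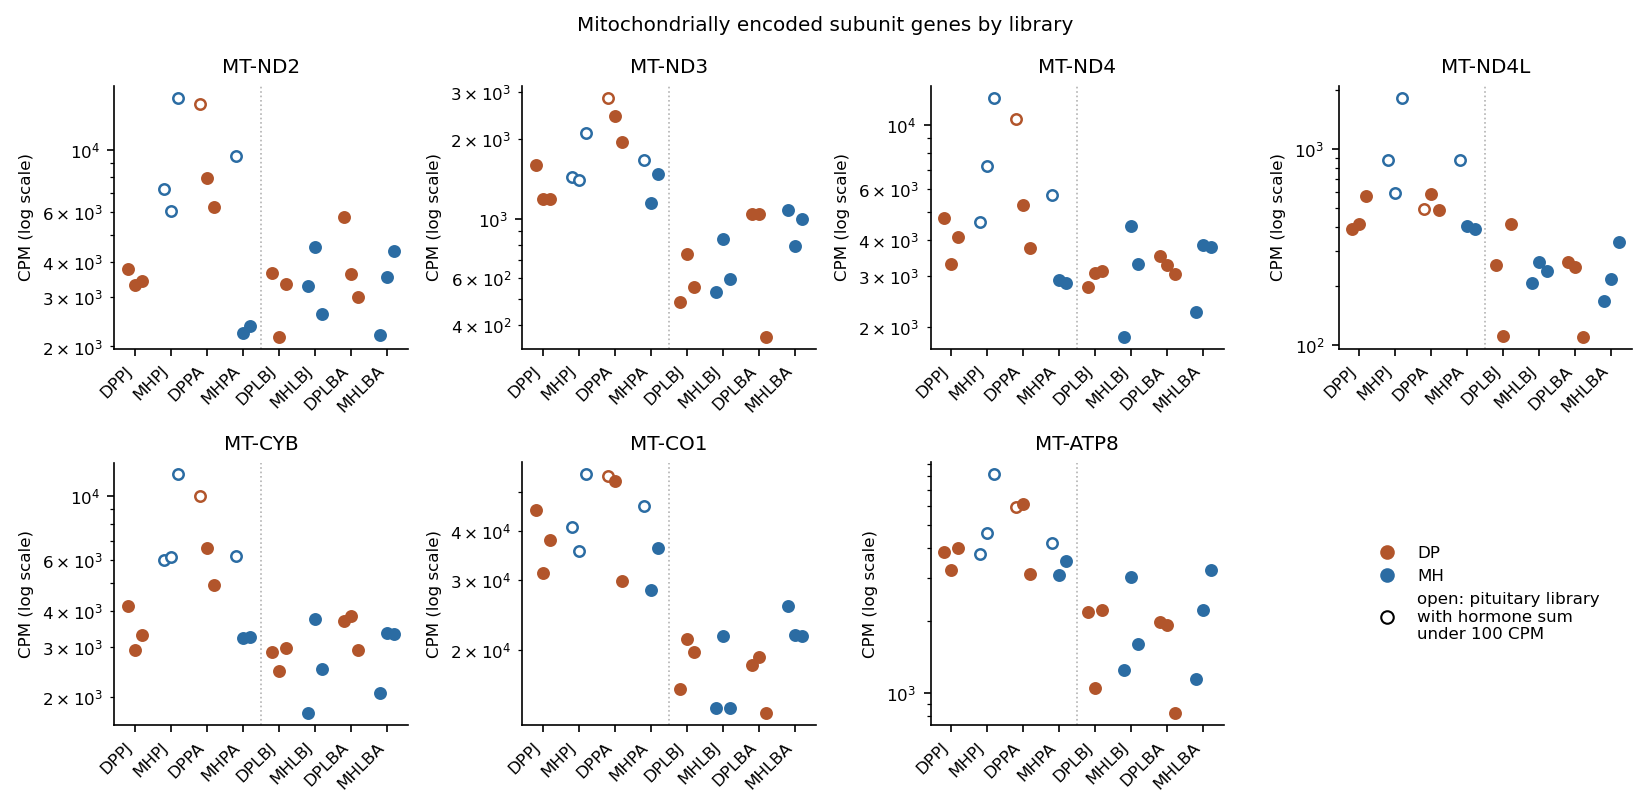
CPM of each of the 7 mitochondrially encoded subunit genes on a log axis, 1 point per library in the 8 groups (pituitary left of the dotted line, long bone right), DPs brown and MHs blue, with open points for the 5 hormone-poor pituitary libraries. MT-CO1 and MT-ND3 do not overlap between the tissues, and MT-ND2 reaches 15304 CPM in an open point of MHPJ.

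The nuclear subunits showed no common shift of that size between the tissues. Of 60 tested, 40 had a positive log2 fold change, against 51.4% of all genes, and 20 a negative one, with a median of 0.17 against 0.03 over all genes. By adjusted p under 0.05 from edgeR, which 61.8% of all genes passed, 15 were higher and 7 lower in pituitary. None was a DEG higher in pituitary, and 3 were DEGs lower in it, as 17.4% of all genes. Without the 5 hormone-poor libraries the median was -0.00, with 6 higher and 9 lower by adjusted p under 0.05. Of complex I, 11 of 28 tested nuclear subunits were higher and 4 lower by this measure. The highest were NDUFB2 (0.82 ± 0.19) and NDUFB5 (0.71 ± 0.14), both accessory subunits of its membrane arm. The core subunits NDUFS1 and NDUFV1, which carry the first electron transfer steps, gave 0.24 ± 0.11 and 0.16 ± 0.17 with edgeR adjusted p of 0.0729 and 0.423.

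Among the other complexes, SDHA, the flavoprotein of complex II, was higher in pituitary (0.48 ± 0.14, edgeR adjusted p = 0.00485). Its level was 232 to 409 CPM in the hormone-poor pituitary libraries, 179.6 to 234 in the other 7 and 133 to 246 in long bone. UQCRC1, a core protein of complex III, gave 0.08 ± 0.14 (edgeR adjusted p = 0.638). In complex IV, COX5B was higher in pituitary (0.38 ± 0.11, edgeR adjusted p = 0.00419), and so was COX7A2L (0.70 ± 0.11, edgeR adjusted p = 3e-05), which is known for its part in joining complexes III and IV into supercomplexes. ATP5B, the catalytic subunit of complex V, gave -0.08 ± 0.17 (edgeR adjusted p = 0.706). ATP5G2, 1 of 3 genes for the same ring subunit of complex V, was lower in pituitary (-0.61 ± 0.16, edgeR adjusted p = 0.0028). On the RPKM scale ATP5G2 made up 31.2 to 56.0 percent of the 3 genes in pituitary and 50.0 to 69.4 percent in long bone.

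**Figure D3:**
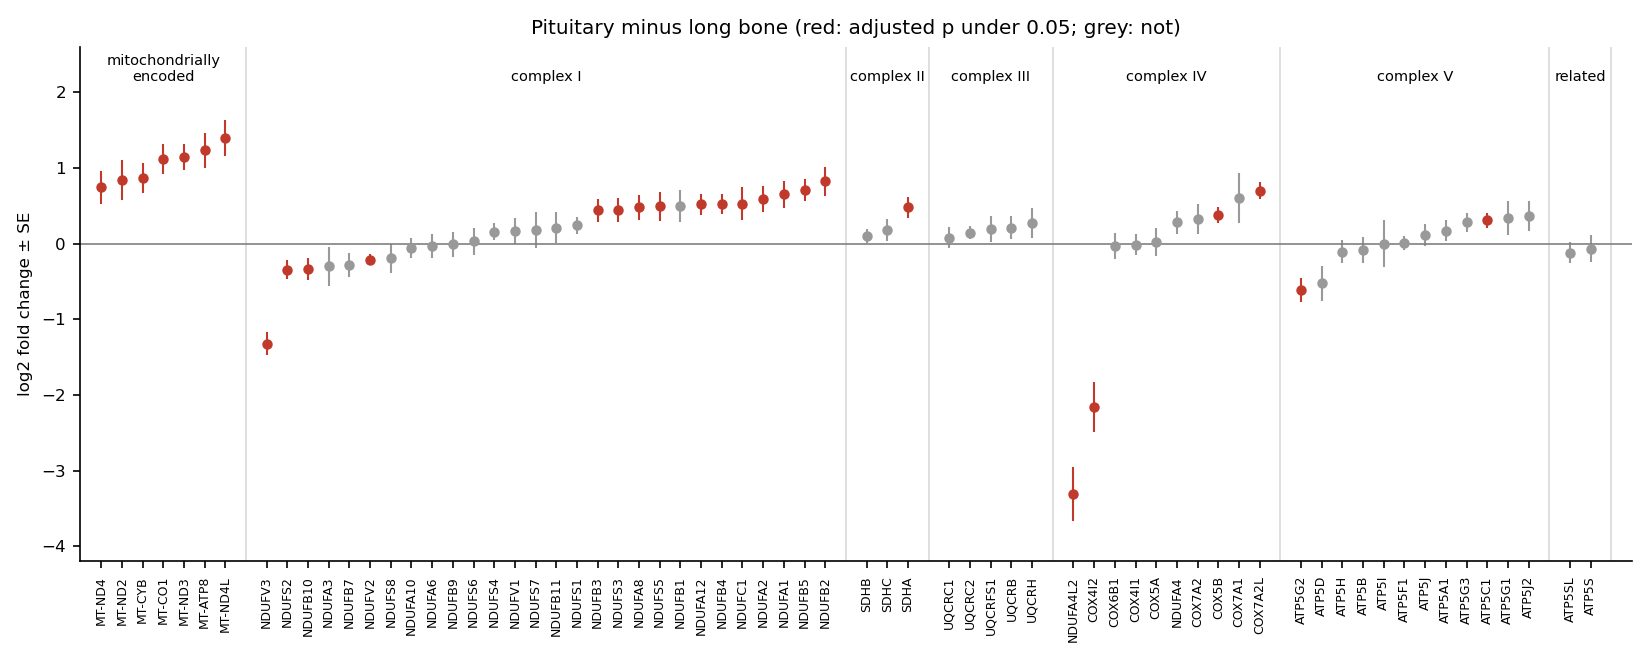
Log2 fold change of pituitary minus long bone with its SE for the 67 members tested, grouped into mitochondrially encoded genes, the nuclear subunits of complexes I to V and the 2 related genes; red points have an edgeR adjusted p under 0.05. The 7 mitochondrially encoded genes lie between 0.74 and 1.39, and NDUFA4L2, COX4I2 and NDUFV3 lie lowest.

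The 3 nuclear DEGs between the tissues were all lower in pituitary, and 2 of them are alternative forms of complex IV subunits. COX4I2, the form of COX4 known from lung and from low oxygen, had 1.50 to 13.3 CPM in pituitary (median 2.99) and 10.3 to 25.9 in long bone (median 16.8). The tissues overlapped through MHPJ replicate 2 at 13.3 CPM, while DPPJ replicate 2 at 9.77 lay just under the long bone range and the other 10 were at most 4.18 CPM. Its log2 fold change was -2.16 ± 0.33 (edgeR adjusted p = 1.5e-05), while the common form COX4I1 gave -0.01 ± 0.14 (edgeR adjusted p = 0.94). On the RPKM scale COX4I2 made up 1.17 to 9.55 percent of the COX4 pair in pituitary and 5.78 to 19.2 percent in long bone.

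NDUFA4L2, a low-oxygen paralog of the complex IV subunit NDUFA4, was the member with the lowest fold change. It had 2 to 27 reads in the pituitary libraries and 21 to 192 in long bone, or 0.112 to 2.27 against 1.81 to 10.9 CPM. The tissues met only at MHPJ replicate 2 (2.27 CPM), and the log2 fold change was -3.31 ± 0.36 (edgeR adjusted p = 3.22e-07). NDUFA4 itself gave 0.28 ± 0.15 (edgeR adjusted p = 0.117). NDUFV3, an accessory subunit of the NADH-oxidizing module of complex I, did not overlap between the tissues. It had 49.2 to 109 CPM in pituitary (median 74.8) and 119 to 287 in long bone (median 180.1), and -1.32 ± 0.15 on the log2 scale (edgeR adjusted p = 5.73e-07). Non-overlap with the lower values in pituitary was seen for 2.65% of all genes tested. Per length it ranked number 24 among the 69 members in pituitary and number 10 in long bone.

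Forms known from muscle were scarce. COX6A2, the heart and skeletal muscle form of COX6A, had 39 reads in MHPJ replicate 2, the pituitary library with 2354 CPM of striated muscle markers. It had 0 reads in 9 of the other 11 pituitary libraries and 2 in the remaining 2, and 0 to 8 in long bone, so it did not pass the filter on low counts in any comparison. In long bone, MHLBA replicate 3 (8 reads) and MHLBJ replicate 1 (5 reads) had the highest striated muscle markers, 641 and 806 CPM, and DPLBA replicate 1 had 6 reads at 93.4 CPM. COX7B2, a testis form of COX7B, had 0 to 12 reads and was not tested either. COX7A1, the muscle form of COX7A, made up 3.57 to 18.6 percent of COX7A1 and COX7A2 together on the RPKM scale in pituitary and 3.35 to 16.0 percent in long bone, and its tissue difference was 0.60 ± 0.32 (edgeR adjusted p = 0.114). COX6B1, the common form of COX6B, gave -0.03 ± 0.17 (edgeR adjusted p = 0.884) and COX7A2 0.32 ± 0.20 (edgeR adjusted p = 0.162).

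In the juvenile pituitary, the mitochondrially encoded subunits stood lower in DPs than in MHs, and single nuclear subunits moved both ways. All 7 mitochondrial genes had a negative log2 fold change of DPPJ minus MHPJ, with a median of -1.05, where 53.8% of all genes were negative, and 4 were DEGs lower in DPs, as 12.7% of 14603 genes were. MT-ND2, a membrane subunit of complex I, had 3766, 3309 and 3410.2 CPM in DPPJ and 7291, 6086 and 15304 in MHPJ. The groups did not overlap, MHPJ replicate 3 was far above the other 2, and the log2 fold change was -1.51 ± 0.41 (edgeR adjusted p = 0.0694).

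MT-CYB had 4144, 2912 and 3288 CPM in DPPJ and 5981, 6139 and 11886 in MHPJ, a log2 fold change of -1.27 ± 0.37 (edgeR adjusted p = 0.0804). MT-ND4L had 387, 412 and 571 against 872, 593 and 1814 CPM and -1.31 ± 0.44 (edgeR adjusted p = 0.106). Again the groups did not overlap and MHPJ replicate 3 was highest. MT-ND4 overlapped, with 4781, 3319.8 and 4090.1 against 4635, 7216 and 12415 CPM and -1.05 ± 0.43 (edgeR adjusted p = 0.154). MT-CO1, the most abundant, differed least, with 45139.7, 31337 and 37879.8 against 40886, 35546 and 55442 CPM and -0.26 ± 0.41 (edgeR adjusted p = 0.686). MT-ND3 (-0.37 ± 0.25) and MT-ATP8 (-0.63 ± 0.35) also stayed under the threshold. No mitochondrial gene reached an adjusted p under 0.05, and 4 had an unadjusted P under 0.05, where 32.0% of all genes did. Without MHPJ replicate 3 none of the 7 was a DEG and their median was -0.61, and without DPPJ replicate 1, 2 or 3 the count of DEGs was 2, 1 and 2. The 3 MHPJ libraries are the hormone-poor ones with 3819, 2818 and 2969.7 CPM of myelin markers, against 84.3, 1268 and 296 in DPPJ, and their part in the result was not tested.

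The nuclear subunits of the juvenile pituitary split in both directions around a median of 0.02. Of 60 tested, 2 were DEGs higher in DPs and 1 lower, against 7.60% and 12.7% of all genes. ATP5I, the small subunit e of ATP synthase, had 42.7, 72.6 and 66.6 CPM in DPPJ and 27.5, 19.8 and 33.1 in MHPJ, a log2 fold change of 1.12 ± 0.28 (edgeR adjusted p = 0.0564). NDUFB1, an accessory subunit of complex I, had 53.2, 58.8 and 43.6 against 29.2, 15.3 and 28.7 CPM and 1.03 ± 0.28 (edgeR adjusted p = 0.0676). UQCRFS1, the iron-sulfur protein of complex III, was lower in DPs, with 53.0, 50.3 and 37.0 against 105, 58.3 and 116 CPM and -1.05 ± 0.29 (edgeR adjusted p = 0.0719). The groups did not overlap for any of these 3, although MHPJ replicate 2 lay close to DPPJ for UQCRFS1. UQCRFS1 had 58.3 to 116 CPM in the 5 hormone-poor pituitary libraries, which include all of MHPJ, and 37.0 to 69.0 in the other 7. The part of this difference in the nuclear values was not tested.

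Leaving out 1 library ended each of these calls by taking the fold change under 2. The log2 value of ATP5I was 0.94 without DPPJ replicate 2 and 0.97 without MHPJ replicate 2, and that of NDUFB1 0.90 and 0.82 without the same libraries. UQCRFS1 stood at -0.89 without DPPJ replicate 3 and at -0.86 without MHPJ replicate 3. The count of nuclear DEGs was 1 without DPPJ replicate 2, 1 without MHPJ replicate 2 and 5 without MHPJ replicate 3. Besides the 3 DEGs, 2 subunits with a change just under 2-fold passed an adjusted p under 0.05, as 10.7% of all genes did. COX7A2L had 215, 191 and 189 CPM in DPPJ and 91.6, 74.2 and 123 in MHPJ, with 0.98 ± 0.21 (edgeR adjusted p = 0.0417). NDUFA3, an accessory subunit of the membrane arm of complex I, had 51.9, 40.4 and 36.6 against 22.6, 18.0 and 23.1 CPM, with 0.96 ± 0.21 (edgeR adjusted p = 0.0415). In all, 16 nuclear subunits were higher and 9 lower in DPPJ without overlap, against 21.1% and 18.6% of all genes.

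Besides UQCRFS1, 7 central subunits of complexes I to V were followed in the juvenile pituitary. SDHA had 204, 234 and 179.6 CPM in DPPJ and 383, 232 and 409 in MHPJ (-0.78 ± 0.24, edgeR adjusted p = 0.0895), and ATP5B 359.7, 320.0 and 278 and 542, 359 and 514 (-0.62 ± 0.21, edgeR adjusted p = 0.107). NDUFV1 gave -0.60 ± 0.21 (edgeR adjusted p = 0.115) and NDUFS1 -0.49 ± 0.22 (edgeR adjusted p = 0.188). COX4I1, COX5B and UQCRC1 lay close to 0, at -0.12, 0.03 and -0.06. None of these 7 passed an adjusted p under 0.05 or the 2-fold limit, and MHPJ replicate 2 lay within the DPPJ range for SDHA and ATP5B.

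In the adult pituitary the mitochondrial genes leaned the other way, and 1 nuclear subunit was a DEG. Of the 7 mitochondrial genes, 6 had a positive log2 fold change of DPPA minus MHPA, against 48.9% of all genes, with a median of 0.77, and none was a DEG, where 2.93% of 14376 genes were. In edgeR's test 1 of the 7 had an unadjusted P under 0.05, as 9.11% of all genes did. It was MT-ND3, with 2839, 2419.6 and 1937 CPM in DPPA and 1665, 1143 and 1473 in MHPA and 0.77 ± 0.28 (edgeR adjusted p = 0.515). MT-ND2 had 14528, 7935 and 6287 CPM in DPPA and 9500.4, 2227 and 2373 in MHPA. In both groups replicate 1, the hormone-poor library, was the highest, and MHPA replicate 1 lay inside the DPPA range. The log2 fold change was 1.03 ± 0.72 (edgeR adjusted p = 0.693). With the replicate number as a block, which pairs the hormone-poor libraries, it was 1.31 ± 0.37 and MT-ND2 became a DEG (edgeR adjusted p = 0.342). Without both hormone-poor libraries it was 1.64 ± 0.22 (edgeR adjusted p = 0.0443), and all 7 genes were positive with a median of 0.66. Without MHPA replicate 1 alone, 2 of the 7 were DEGs, and DESeq2 and limma on RPKM gave 0 with all libraries. The share of all genes called was not counted in these fits.

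NDUFA3 was the nuclear DEG, where 1.75% of all genes were DEGs higher in DPs. It had 48.1, 47.0 and 37.8 CPM in DPPA and 23.9, 19.1 and 19.3 in MHPA. Every DPPA library was above every MHPA library, and the log2 fold change was 1.12 ± 0.21 (edgeR adjusted p = 0.39). It stayed a DEG when any 1 of the 6 libraries was left out and, at a log2 value of 1.16 (edgeR adjusted p = 0.0535), without both hormone-poor libraries. However, its fold change fell under 2 without TMM factors, edgeR's scaling between libraries (log2 value 0.91), and with limma on RPKM. The median of the 59 nuclear subunits tested was -0.13 against -0.01 over all genes. Without overlap, 8 were higher and 11 lower in DPPA, against 9.17% and 8.47% of all genes.

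The breed comparisons of the juvenile and the adult pituitary share no library, so the members that parted the breeds at both stages were counted. Of 59 nuclear subunits tested at both, 5 were higher in DPs without overlap both times, out of 16 at the juvenile and 8 at the adult stage, and 2 were lower both times, out of 9 and 11. Over all 14201 genes tested at both stages, 2.44% were higher and 1.62% lower both times. Another 3 nuclear subunits, NDUFA1, NDUFA2 and NDUFB5, were higher in juvenile and lower in adult DPs without overlap. Over all genes, 1.71% parted the breeds in opposite directions. Every MHPJ library of the juvenile comparison was hormone-poor. The 5 higher both times were NDUFA3, NDUFB9, NDUFB11, UQCRB (a small subunit of complex III) and ATP5J (coupling factor 6 of ATP synthase). UQCRB gave 0.63 ± 0.20 and 0.78 ± 0.24, ATP5J 0.82 ± 0.24 and 0.45 ± 0.18. The 2 lower ones were COX5A, a matrix-side subunit of complex IV, with -0.59 ± 0.22 and -0.84 ± 0.21, and ATP5D, the delta subunit of ATP synthase, with -0.49 ± 0.18 and -0.68 ± 0.26. NDUFA3 was the only one of these 7 with an adjusted p under 0.05, at the juvenile stage. In long bone none of the 7 parted the breeds at both stages. NDUFA3 there had 21.7, 113 and 18.8 CPM in DPLBJ, 36.4, 28.2 and 20.9 in MHLBJ, 33.2, 25.4 and 51.2 in DPLBA and 58.4, 31.3 and 17.5 in MHLBA, and the breeds overlapped at both stages.

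**Figure D4:**
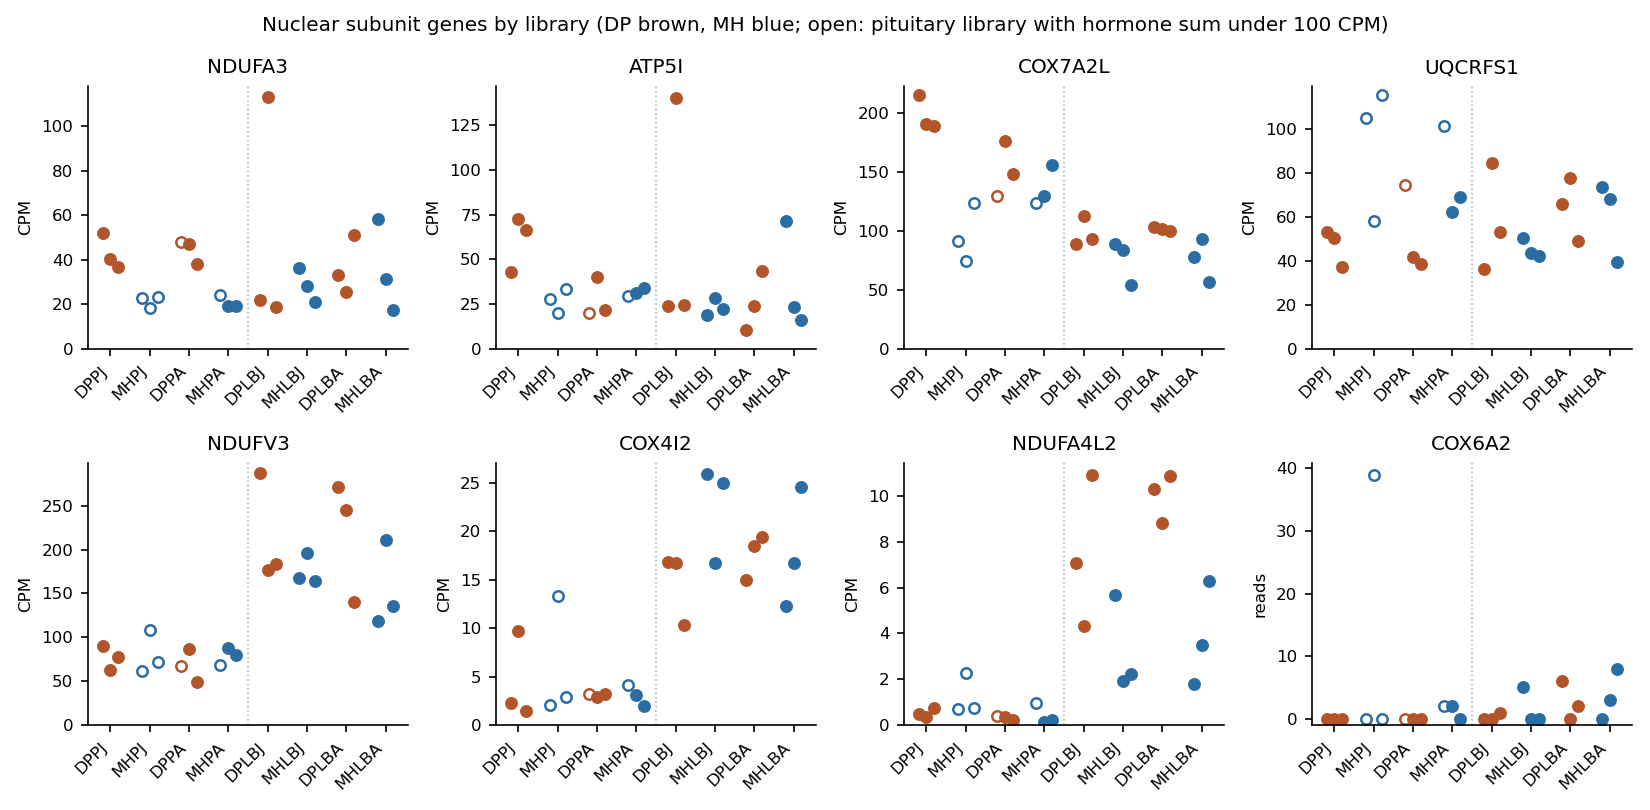
CPM of 7 nuclear subunit genes, and reads of COX6A2, by library in the 8 groups (pituitary left of the dotted line, long bone right), DPs brown and MHs blue, with open points for the 5 hormone-poor pituitary libraries. NDUFA3 parts DPs from MHs at both stages of the pituitary, NDUFV3 parts the tissues, and 39 of the COX6A2 reads are in 1 MHPJ library.

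The change of the breed difference with stage was tested as an interaction over the 12 pituitary libraries, and no gene of all 15200 reached an adjusted p under 0.05 (the lowest from edgeR was 0.106, and 3094 had an unadjusted P under 0.05). By the DEG threshold, which 8.87% of genes passed with a negative value, 5 of the 7 mitochondrial genes had a negative interaction. MT-ND2 had -2.54 ± 0.86 (edgeR adjusted p = 0.178), MT-CYB -2.05 ± 0.58 (0.165), and MT-ND4 -1.82 ± 0.69 (0.199). Of the nuclear subunits, 4 had a positive interaction by this threshold, against 6.80% of all genes. They were ATP5I at 1.33 ± 0.44, NDUFA1 at 1.26 ± 0.36, NDUFC1 at 1.17 ± 0.52 and NDUFB5 at 1.01 ± 0.31, the last 3 accessory subunits of complex I. For NDUFA1 every DPPJ library lay above every MHPJ library (74.0, 96.6 and 73.3 against 60.4, 31.2 and 60.5 CPM) and every DPPA library below every MHPA library (44.6, 48.6 and 46.0 against 89.0, 63.1 and 66.1 CPM). The 5 mitochondrial calls became 2 or 3 without DPPJ replicate 2 (3), MHPJ replicate 3 (2), DPPA replicate 1 (2), MHPA replicate 2 (2) or MHPA replicate 3 (3). The 4 nuclear calls became 2 without DPPJ replicate 1, MHPJ replicate 2, DPPA replicate 1 or MHPA replicate 3. Without the 2 hormone-poor adult libraries the interaction of MT-ND2 was -3.13 ± 0.55 (edgeR adjusted p = 0.0268), in a fit where 17.3% of all genes were DEGs. In that fit every MHPJ library was hormone-poor and no other library was, so the interaction and this difference cannot be told apart. There MT-ATP8 (-1.11) and NDUFB5 (0.84) no longer passed the threshold and MT-ND4L (-1.75) did, which left 5 mitochondrial and 3 nuclear calls.

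Between the stages of the DP pituitary, mitochondrial and nuclear subunits differed in sign. These comparisons share the DPPJ libraries with the juvenile breed comparison and the DPPA libraries with the adult one. All 7 mitochondrial genes had a negative log2 fold change of DPPJ minus DPPA, against 53.0% of all genes, with a median of -0.72, and 2 were DEGs, where 2.64% of 14533 genes were. MT-ND2 had 3766, 3309 and 3410.2 CPM in DPPJ and 14528, 7935 and 6287 in DPPA (-1.49 ± 0.38, edgeR adjusted p = 0.419), and MT-CYB 4144, 2912 and 3288 and 10007, 6625 and 4914 (-1.09 ± 0.35, edgeR adjusted p = 0.419). The stages did not overlap for either, and DPPA replicate 1, the hormone-poor library, was the highest both times. Without it the median of the 7 was -0.35, MT-ND2 was still a DEG and MT-CYB, at -0.76, was not, and the count was also 1 without DPPJ replicate 2 or 3.

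Of the 59 nuclear subunits, 46 had a positive log2 fold change in the same comparison, against 47.0% of all genes, with a median of 0.17, and without DPPA replicate 1 the count was 50 and the median 0.24. Without overlap, 15 were higher in DPPJ and 0 lower, against 11.4% and 10.4% of all genes. ATP5I was the nuclear DEG, where 0.929% of all genes were DEGs higher in DPPJ. It had 42.7, 72.6 and 66.6 CPM in DPPJ and 19.7, 39.8 and 21.4 in DPPA, a log2 fold change of 1.14 ± 0.33 (edgeR adjusted p = 0.419). Its log2 fold change was 0.96 without DPPA replicate 1, which ends the call, as did leaving out DPPJ replicate 2 or DPPA replicate 3. No gene of all those tested had an adjusted p under 0.05 from edgeR between the stages of the DP pituitary, and 518 were DEGs.

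In the MH pituitary all 7 mitochondrial genes had a positive log2 fold change of MHPJ minus MHPA, against 50.4% of all genes, with a median of 0.95, but none was a DEG, where 7.74% of all genes were, and none had an unadjusted P under 0.05, where 11.7% did. MT-ND2 had 7291, 6086 and 15304 CPM in MHPJ and 9500.4, 2227 and 2373 in MHPA, so that MHPA replicate 1, the hormone-poor library, lay above 2 of the MHPJ libraries. Its log2 fold change was 1.04 ± 0.76 (edgeR adjusted p = 0.602). Without MHPA replicate 1, 4 of the 7 were DEGs, among them MT-ND2 at 2.09, in a comparison where all 3 juvenile libraries were hormone-poor and neither adult library was. For that fit the share of all genes called was not counted. With all 6 libraries the nuclear median was 0.02, and 0 of 60 were DEGs by edgeR, with 0 at an unadjusted P under 0.05 and 0 by DESeq2, and 1 was without MHPA replicate 1. DESeq2 called 1 of the 7 mitochondrial genes, MT-ND4. Without MHPJ replicate 3 the mitochondrial median was 0.43.

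In the juvenile long bone, nuclear subunits leaned towards DPs without any single call, and this lean rested on 1 library. Of 60 tested, 49 had a positive log2 fold change of DPLBJ minus MHLBJ, against 53.4% of all genes, with a median of 0.36. All 12 subunits of complex V were positive, with a median of 0.64. None of the 60 was a DEG by edgeR, where 13.8% of all genes were, none had an unadjusted P under 0.05, where 17.8% of all genes had one, and DESeq2 gave 3 DEGs. Leaving out 1 library gave 5 DEGs without DPLBJ replicate 1, 2 without DPLBJ replicate 3, 2 without MHLBJ replicate 1 and 1 without MHLBJ replicate 2. No share of all genes was counted beside these. ATP5B had 236, 779 and 347 CPM in DPLBJ and 375, 248 and 248 in MHLBJ. ATP5I had 23.8, 141 and 24.1 and 18.7, 28.1 and 22.0. In both genes DPLBJ replicate 2 was far above all other libraries of the comparison, and the rest overlapped. Without DPLBJ replicate 2 the median of the nuclear subunits was -0.03, with 29 positive and 31 negative, and that of complex V was 0.09. The library had 7529 CPM of red cell precursor markers and 5483 of neutrophil markers, against 0.532 to 8.94 and 4.41 to 74.3 in MHLBJ, and their part in the result was not tested. DPLBJ replicate 3 also had 3971 and 1091 CPM of these markers, with ATP5B and ATP5I both inside the range of MHLBJ. The 7 mitochondrial genes had a median of -0.09, between -0.19 and 0.20, with 0 DEGs and 0 at an unadjusted P under 0.05 by edgeR.

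In the adult long bone the nuclear median was 0.03 (0.29 without MHLBA replicate 1), and NDUFA4L2 was the single nuclear DEG, where 10.3% of 14073 genes were DEGs higher in DPs. It had 10.3, 8.81 and 10.9 CPM in DPLBA and 1.81, 3.51 and 6.27 in MHLBA, so every DPLBA library was above every MHLBA library, as for 15.2% of all genes. The log2 fold change was 1.31 ± 0.49 (edgeR adjusted p = 0.158). The call was lost, with log2 values of 1.25 to 1.30, when DPLBA replicate 1, DPLBA replicate 3 or MHLBA replicate 2 was left out. In the juvenile long bone the same gene had 7.08, 4.34 and 10.9 CPM in DPLBJ and 5.70, 1.92 and 2.24 in MHLBJ, which overlap (1.18 ± 0.58, edgeR adjusted p = 0.341). In the adult libraries, markers of osteoblasts and osteocytes summed to 6920 to 15108 CPM in DPLBA and 2007 to 4588 in MHLBA. Neutrophil markers summed to 796 to 1177 and 6.27 to 56.0 CPM, and markers of proliferating cells to 159 to 293 and 72.1 to 98.0. B cell markers summed to 7.31 to 11.9 and 2.54 to 4.57 CPM. Cartilage markers, at 1299 to 24758 and 44.9 to 1958 CPM, overlapped, as did adipocyte and endothelium markers. The part of these markers in the NDUFA4L2 values was not tested. The median of the mitochondrial genes was -0.26. MT-CO1 had 18335, 19299.7 and 13906 CPM in DPLBA and 25836, 21822 and 21698 in MHLBA, without overlap as for 14.7% of all genes, at -0.50 ± 0.61 (edgeR adjusted p = 0.653).

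Between the stages of the long bone no subunit was a DEG in either breed by edgeR. In DPs 3.14% of all genes were DEGs, and the medians were -0.03 for nuclear and -0.11 for mitochondrial subunits, with 0 of 67 at an unadjusted P under 0.05, against 4.31% of all genes, and 1 nuclear DEG without DPLBJ replicate 1 or without DPLBA replicate 1. In MHs 2.91% of all genes were DEGs, and 51 of 60 nuclear subunits had a negative log2 fold change of MHLBJ minus MHLBA, against 53.3% of all genes, with a median of -0.25 that went to 0.03 without TMM factors and to -0.06 without MHLBA replicate 1, and 2 were DEGs without MHLBA replicate 3. COX5B had the only unadjusted P under 0.05, where 4.27% of all genes had one. It had 24.6, 19.1 and 21.6 CPM in MHLBJ and 32.0, 35.2 and 27.7 in MHLBA and -0.56 ± 0.22 (edgeR adjusted p = 0.998). Every MHLBJ library was below every MHLBA library for this gene. The mitochondrial genes had a median of -0.13. The interaction of breed and stage in long bone gave 0 DEGs among the 67 subunits by edgeR and 0 at an unadjusted P under 0.05, where 4.48% of all genes had one, 1 by DESeq2, 1 without DPLBJ replicate 1, DPLBJ replicate 3 or DPLBA replicate 3, and 4.17% among all genes.

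**Figure D5:**
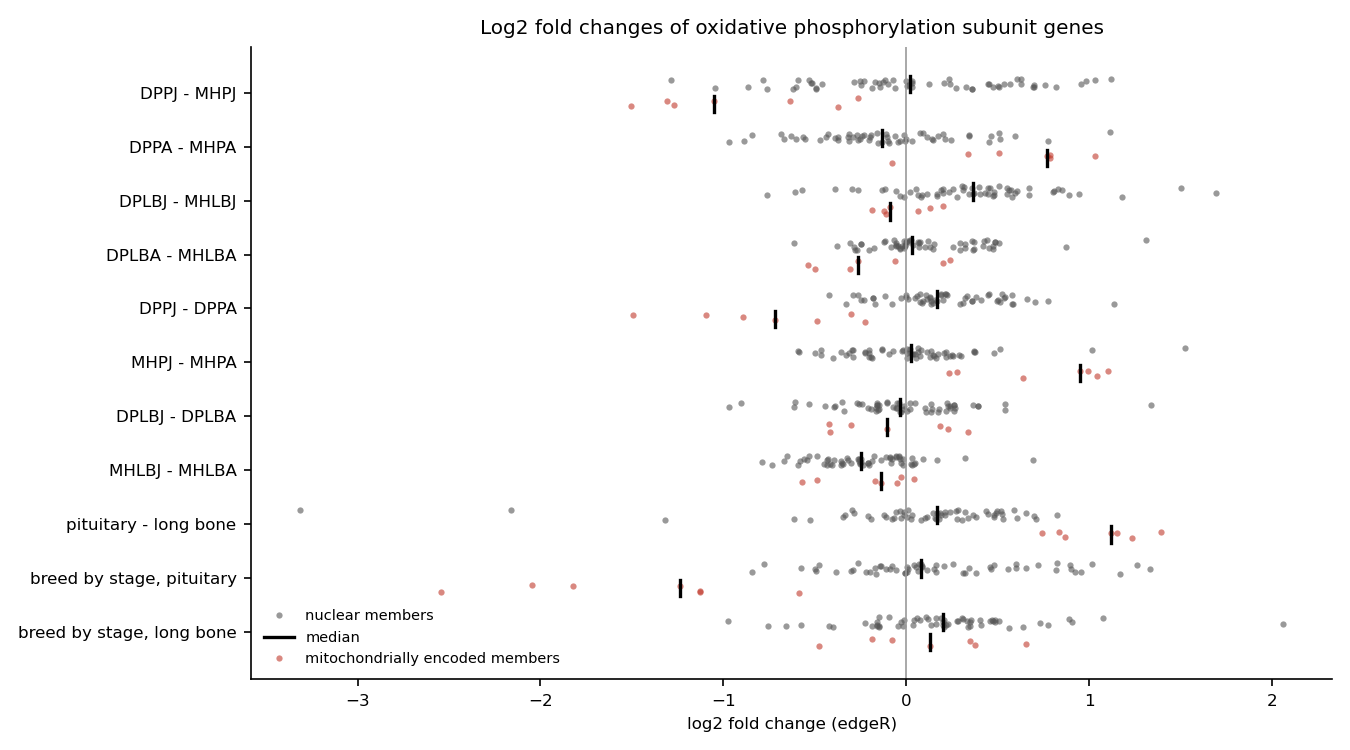
Log2 fold changes from edgeR of every member tested in the 11 comparisons, 1 point per gene, nuclear members grey and mitochondrially encoded members red, with a bar at each median. The mitochondrial median lies below the nuclear one for DPPJ minus MHPJ (-1.05 and 0.02) and for DPPJ minus DPPA (-0.72 and 0.17), and above it for pituitary minus long bone (1.12 and 0.17).

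Other genes of mitochondrial energy supply were counted from lists, to be read against the shares of all genes given above. In the juvenile pituitary, of 40 assembly factors of the complexes, 2 were DEGs higher in DPs and 0 lower, and of 14 electron carriers and coenzyme Q enzymes, 2 were higher and 0 lower. The latter list also holds the subunits CYC1 and NDUFAB1. Of 69 mitochondrial ribosome proteins, which translate the mitochondrial messages, 49 had a positive log2 fold change, against 46.2% of all genes, and 1 was a DEG, higher in DPs. Of 17 genes of mitochondrial transcription and replication, TFAM and POLRMT among them, 0 were DEGs by edgeR, with 4 at an unadjusted P under 0.05. Of 19 genes of the tricarboxylic acid cycle and the pyruvate dehydrogenase step, 15 had a negative value, with a median of -0.51, and 2 were DEGs lower in DPs and 0 higher. Of 18 glycolysis genes 15 were negative, with a median of -0.91, and 4 were DEGs lower in DPs and 0 higher. Of 16 regulators of mitochondrial biogenesis 2 were DEGs lower in DPs, and of 12 carriers and uncoupling proteins 1 was.

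In the adult pituitary the same lists gave 0 or 1 DEG in each direction. Between the tissues, 2 of 40 assembly factors were DEGs higher in pituitary and 0 lower, and 0 of 70 mitochondrial ribosome proteins, 0 of 17 transcription and replication genes and 0 of 19 tricarboxylic acid cycle genes were DEGs, although 33, 10 and 8 of them had an unadjusted P under 0.05, against 65.2% of all genes, and 30, 9 and 7 an adjusted p under 0.05 from edgeR. Of the 16 biogenesis regulators, 3 were DEGs higher in pituitary and 1 lower. Of 20 glycolysis genes, 3 were higher and 2 lower, and of 13 carriers and uncoupling proteins 2 were higher and 3 lower. In the adult long bone, 17 of 19 glycolysis genes had a positive log2 fold change of DPs minus MHs with a median of 0.57, against 48.1% of all genes positive. Of these, 3 were DEGs higher in DPs and 1 lower, the latter as 8.03% of all genes.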

How the data were processed

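Counts of reads per gene were deposited as whole numbers for 24232 genes, together with RPKM values that the authors had scaled by gene length and library size. Per the study's methods, trimmed reads were mapped to EquCab 3.0, and Salmon gave transcript levels against a cDNA reference. The submitters' processing notes name bcl2fastq, TopHat2 and edgeR without versions, and do not name Salmon. Which tool gave the deposited counts is not stated. Whether counting used the strand is not given in the sources used here. No symbol was given for 8077 genes, which could therefore not be members. 2 marker genes are not reported here.

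Genes were kept by edgeR's filterByExpr (minimum count 10), scaled by TMM factors and tested with edgeR 4.0.16 (quasi-likelihood), 2 groups of 3 libraries at a time, all 12 libraries of a tissue for interactions and all 24 for the tissues. The tissue fit took the libraries as independent, although 12 horses gave the 24. Fold changes are first minus second group as named. CPM of single libraries come from 1 scaling of all 24, whereas overlap of groups was judged on each comparison's own scaling. The p-values set the group difference against the spread between libraries of the same group, pooled over the groups of a fit and moderated across genes. A comparison of 3 against 3 cannot go below an exact permutation p of 0.1. DESeq2 1.42.0, limma 3.58.1 on log2(RPKM + 1) or log2(RPKM + 0.1), other filters and scalings, a replicate block and leaving out each library were tried as alternatives. In these alternatives DEGs were counted among the members only, without a share over all genes.

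The members and lists were chosen with earlier results of these data known. Named genes were the mitochondrial ones, 1 or 2 core subunits per complex, paralog sets, and nuclear DEGs without overlap (for the tissues, all nuclear DEGs). NDUFB2, NDUFB5, NDUFB9, NDUFB11, NDUFA1, NDUFA2, NDUFC1, UQCRB, ATP5A1, ATP5J, ATP5D, ATP5G2 and COX5A were added once their values had been seen. The hormone-poor libraries were likewise told apart after the data were seen, at a hormone sum under 100 CPM.

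Replicate numbers were checked as pairs by correlating the deviations of same-numbered libraries from their group means over 14532 genes. Only the adult pituitary of both breeds gave values over 0.1 in every pair (0.651, 0.561 and 0.394), and the labels give no source for a pairing. No sequence is printed, and a search of promoters was not run.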

Additional observations from a re-analysis of the deposited data

Results flagged for a closer look

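The breed difference of 9 subunits changed with stage in the pituitary by the unadjusted threshold of an interaction test in edgeR over 12 libraries, and none had an adjusted p under 0.05. The values are DPPJ minus MHPJ less DPPA minus MHPA on the log2 scale. They were -2.54 for MT-ND2, -2.05 for MT-CYB, -1.82 for MT-ND4, -1.13 for MT-ND3 and -1.13 for MT-ATP8. The nuclear values were 1.33 for ATP5I, 1.26 for NDUFA1, 1.17 for NDUFC1 and 1.01 for NDUFB5. The same threshold was passed by 2382 of 15200 genes, or 15.7%. All 3 MHPJ libraries, DPPA replicate 1 and MHPA replicate 1 had almost no hormone transcripts. No DPPJ library was among them, so breed and this difference cannot be told apart at the juvenile stage. A fit without the adult ones is given above. Beyond leaving out each library in turn, groups of 3 libraries were not tested for single outlying samples.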

How the results depend on the processing

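No named gene reversed a called direction under any alternative run, some medians, which carry no call, changed sign as given here, and 684 of 784 summary values stayed within the spread or 1.5 times the count. Among values of single genes 35 became calls and 104 lost one, and the cause was not tested. Without TMM factors the median of all genes shifted by up to 0.28 (log2), in the pituitary interaction. In the juvenile pituitary, limma on log2(RPKM + 1) and on log2(RPKM + 0.1) gave a nuclear median of 0.22 and 2 mitochondrial DEGs, limma without a filter gave 0, and all 3 limma fits gave 5 nuclear DEGs. In the adult pituitary the nuclear median was -0.34 without TMM factors, with 2 nuclear DEGs, and -0.28 with limma on log2(RPKM + 0.1), and 1 mitochondrial gene was a DEG without both hormone-poor libraries. In the juvenile long bone DESeq2 gave 3 nuclear DEGs, no filter 2 and the fit of all 12 libraries 1, and in the adult long bone the 1 nuclear DEG became 0 without TMM factors. For the DP pituitary stages the nuclear median was 0.34 without TMM factors, and mitochondrial DEGs were 1 without TMM factors and in both filtered limma fits and 0 without a filter. For the MH pituitary stages limma gave nuclear medians of -0.17, -0.19 and -0.17, and mitochondrial DEGs were 1 with DESeq2 and 2 in the fit of all 12 libraries. For the MH long bone stages the nuclear median was 0.034 without TMM factors and -0.00070, -0.00038 and -0.0076 with limma. Between tissues 1 mitochondrial DEG remained of 4 without the 5 hormone-poor libraries. In the pituitary interaction the nuclear median was 0.38 without TMM factors and 0.44, 0.44 and 0.40 with limma, each with 10 nuclear DEGs, and scaling without mitochondrial genes gave 2. Mitochondrial DEGs were then 3 without TMM factors and in the filtered limma fits and 1 without a filter, and the mitochondrial median was -1.70 without the hormone-poor adult libraries. In the long bone interaction the nuclear median was -0.11 without TMM factors and -0.13, -0.13 and -0.12 with limma, and DESeq2 gave 1 nuclear DEG. The nuclear share of reads in pituitary had a median of 0.729 percent over reads that are not mitochondrial.

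With the replicate number as a block, 1 mitochondrial gene, MT-ND2, became a DEG in the adult pituitary and the pituitary interaction gave 2 nuclear DEGs, and the block moved no other count by over 1.5 times. Outside the adult pituitary the samples share only a number.

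Leaving out 1 library at a time, the nuclear DEGs ranged from 1 to 5 in the juvenile pituitary, 1 to 2 in the adult pituitary (2 without DPPA replicate 1, DPPA replicate 2 or MHPA replicate 2), 0 to 5 in the juvenile and 0 to 1 in the adult long bone, 0 to 1 and 0 to 1 between pituitary stages of DPs and MHs, 0 to 1 and 0 to 2 between their long bone stages, and 2 to 6 and 0 to 1 in the pituitary and long bone interactions. Mitochondrial DEGs ranged from 0 to 4 in the juvenile and 0 to 2 in the adult pituitary, 1 to 3 and 0 to 4 between its stages in DPs and MHs, and 2 to 6 in the interaction. The mitochondrial median ranged from -1.38 to -0.61 in the juvenile pituitary, from -0.99 to -0.35 and 0.43 to 1.35 between pituitary stages, and from -1.72 to -0.90 in the interaction (lowest without MHPA replicate 1). The nuclear median ranged from -0.026 to 0.56 in the juvenile and -0.062 to 0.29 in the adult long bone, and from -0.17 to 0.40 in its interaction (lowest without DPLBJ replicate 2). Depth limits NDUFC1, COX6A2, COX7A1 and COX7B2, each under 100 reads in all 24 libraries, NDUFA4L2 in 20, and NDUFA2 and COX4I2 in 10.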

Other observations

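The alpha and beta subunits of ATP synthase, which the enzyme holds in equal number, did not keep 1 ratio of transcripts. On the RPKM scale ATP5A1 was 2.64, 2.56 and 2.47 times ATP5B in DPPJ and 1.45, 1.39 and 1.39 times in MHPJ, and 2.59, 4.37 and 3.68 times in DPPA against 1.74, 2.05 and 2.05 in MHPA. The DP libraries lay above the MH libraries at both stages of the pituitary. Every MHPJ library and no DPPJ library was hormone-poor, so breed and this difference cannot be told apart at the juvenile stage. The hormone-poor DPPA replicate 1 and MHPA replicate 1 had 2.59 and 1.74. In long bone the ratio ran from 1.39 to 2.71 and the breeds overlapped. The ratio was chosen after its values were seen and was not tested.

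Of the 6 mitochondrially encoded genes listed without the prefix, ND6, the complex I subunit on the other strand of the mitochondrial DNA, was apart from the rest in the juvenile long bone. It had 1284, 1139 and 1305 CPM in DPLBJ and 291, 784 and 476 in MHLBJ, a log2 fold change of 1.28 ± 0.39 (edgeR adjusted p = 0.188), where the other 5 ran from -0.31 to 0.34. It was singled out after its values were seen.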
